A study of Mus musculus with 4 samples.

Results

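Myogenic transcription factor genes encode the DNA-binding proteins, and the coactivators they work with, that set up and maintain the muscle gene programme. The 9 genes described here were Myod1, Myf6, Myog, Mef2a, Mef2c, Mef2d, Six4, Eya1 and Eya4, out of 21887 protein-coding genes of the nuclear chromosomes. They were listed by name, with peaks of these data already known. For each gene, the peaks that overlapped its RefSeq body plus 5 kb on each side were taken from 4 lists.

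The lists came from CUT&RUN on the gastrocnemius, a calf muscle, of male C57BL/6 mice aged 4 weeks. In this assay a nuclease tethered to an antibody cuts out the DNA near the bound protein for sequencing. All mice carried floxed Phf2 on both alleles (Phf2 flox/flox). The KO muscle also carried Acta1 Cre (Acta1 Cre+), a recombinase driven by a muscle fibre actin promoter, and the Ctrl muscle carried none (Acta1 Cre-). The libraries were KO PHF2 with 161 peaks, Ctrl PHF2 with 1621, KO IgG with 152 and Ctrl IgG with 77, where IgG stands for an antibody without a specific target. Each group held 1 library, so no test between genotypes was possible, and each comparison describes these libraries only. Whole muscle holds nuclei of fibres and of other cells, and Acta1 Cre leaves Phf2 in place outside fibres. Fewer nuclei with a bound site and less binding per nucleus cannot be told apart in such a sample.

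PHF2 has a PHD finger, which recognises a histone mark found at active promoters, and a JmjC domain of the histone demethylase family. Myod1, Myf6 and Myog belong to the basic helix-loop-helix (bHLH) myogenic factors, which pair with E proteins and bind the E-box in muscle promoters. Mef2a, Mef2c and Mef2d encode MEF2 factors, MADS-box proteins that bind A/T-rich sites and act together with the bHLH factors. Six4 encodes a homeodomain protein, and Eya1 and Eya4 encode coactivators of such proteins, a pairing that acts upstream of and beside the bHLH factors.

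In the KO PHF2 list 0 of the 9 genes had a peak, against 8 of 9 in the Ctrl PHF2 list, where they held 11 peaks. Myf6, Mef2c and Mef2d had 2 Ctrl PHF2 peaks each, Myod1, Mef2a, Six4, Eya1 and Eya4 had 1 each, and Myog had none. In the KO IgG and Ctrl IgG lists 0 of the 9 genes had a peak. Over all protein-coding genes, the same windows held a peak for 0.713% of genes in KO PHF2, 7.38% in Ctrl PHF2, 0.155% in KO IgG and 0.064% in Ctrl IgG. The genes were picked with these peaks known, so the count of 8 is a description and was not tested. Every member peak overlapped its gene or lay within 112 bp of it, and none lay between 5 and 20 kb away. Gene length differed widely: 3 of the 9 were under 5000 bp, a class in which 3.18% of all genes had a Ctrl PHF2 peak, and 4 were over 100 kb, where 17.1% had one.

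Promoter sequences were available for 6 of the 9 genes, with 10 promoters among them, and not for Myod1, Myf6 and Eya1. The 250 bases before the start are shown for 4 of them (RefSeq, GRCm38.p6, 5′ to 3′ on the strand of the gene). Mef2d, Mef2a and Six4 are the genes whose promoter window lay under a Ctrl PHF2 peak, in whole or in part, and Myog is the gene with no peak. Capitals mark matches, on either strand, to the E-box CANNTG, the MEF3 site TCAGGTT, which homeodomain proteins of the Six4 kind recognise, and the MEF2 site, here with its last letter free.
Mef2d, chr3:88142122-88142371, plus strand: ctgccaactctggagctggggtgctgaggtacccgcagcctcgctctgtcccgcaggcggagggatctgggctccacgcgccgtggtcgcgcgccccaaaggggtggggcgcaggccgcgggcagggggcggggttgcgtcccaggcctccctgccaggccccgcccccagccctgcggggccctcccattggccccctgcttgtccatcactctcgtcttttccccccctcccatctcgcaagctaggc
Mef2a, chr7:67372859-67373108, minus strand: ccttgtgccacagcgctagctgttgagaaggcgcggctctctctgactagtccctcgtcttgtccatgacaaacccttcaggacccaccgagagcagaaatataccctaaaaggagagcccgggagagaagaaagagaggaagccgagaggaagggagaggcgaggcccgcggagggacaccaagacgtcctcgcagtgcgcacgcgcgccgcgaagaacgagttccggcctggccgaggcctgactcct
Six4, chr12:73113246-73113495, minus strand: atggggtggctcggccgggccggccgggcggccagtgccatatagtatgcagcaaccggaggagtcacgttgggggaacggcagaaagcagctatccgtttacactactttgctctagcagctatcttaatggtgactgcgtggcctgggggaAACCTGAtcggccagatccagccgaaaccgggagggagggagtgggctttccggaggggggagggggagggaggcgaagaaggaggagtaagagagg
Myog, chr1:134289754-134290003, plus strand: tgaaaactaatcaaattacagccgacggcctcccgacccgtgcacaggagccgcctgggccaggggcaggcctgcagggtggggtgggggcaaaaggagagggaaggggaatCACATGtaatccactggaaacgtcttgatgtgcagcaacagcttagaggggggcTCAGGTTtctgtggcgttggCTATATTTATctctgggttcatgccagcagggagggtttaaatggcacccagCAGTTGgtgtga

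Among the bHLH genes, Myf6 had the peaks of highest fold. Myf6 encodes MRF4, the family member most abundant in adult fibres, and lies on chromosome 10 from 107492848 to 107494723 (Gene ID 17878). Its first Ctrl PHF2 peak ran from 107493845 to 107494647 inside the gene, 803 bp wide. The authors' fold enrichment there, a ratio of the summit to the local background after a constant is added to each, was 7.89. Its -log10 q was 6.70, and 15 tags lay at the summit (95% exact Poisson interval 8.40 to 24.7). The second ran from 107494835 to 107495131, beyond the upper end of the gene by 112 bp, and was 297 bp wide with a fold enrichment of 6.94 and 13 tags (6.92 to 22.2). Only 187 bp separated these peaks, and their summits lay 696 bp inside and 160 bp outside that end. The KO PHF2 list had none at Myf6, and its nearest peak was 668426 bp from the gene.

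Myf6 shares its locus with Myf5, the earliest family member expressed in the embryo and a satellite cell gene, 5920 bp away. No library had a peak in the Myf5 window, and the nearest Myf6 peak lay 6918 bp from Myf5. A window of 20 kb would assign both Myf6 peaks to Myf5 too.

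Myod1, which encodes the factor that can convert other cell types to muscle, lies on chromosome 7 from 46376474 to 46379092 (Gene ID 17927). Its single Ctrl PHF2 peak ran from 46375906 to 46376739 and straddled the lower end of the gene, with the summit 8 bp inside it. It was 834 bp wide, and its fold enrichment of 4.72, with 13 tags (6.92 to 22.2), was the lowest of the 11. Its -log10 q of 2.36 was also the lowest. At 1460th of 1621 by fold, it lay in the lower part of the Ctrl PHF2 list. In the KO PHF2 list the nearest peak was 21380042 bp away.

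Myog encodes myogenin, the bHLH factor that drives terminal differentiation, and lies on chromosome 1 from 134290004 to 134292548 (Gene ID 17928). It had 0 peaks in each of the 4 libraries. The nearest KO PHF2 peak lay 865914 bp from the gene and the nearest Ctrl PHF2 peak 95979 bp. An absent peak means that no region passed the caller's threshold, and tags at Myog were not measured.

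Mef2d had the highest fold enrichment of the 9 genes. It is the MEF2 gene with a muscle-specific isoform of late differentiation, and lies on chromosome 3 from 88141941 to 88172091 (Gene ID 17261). The first Ctrl PHF2 peak, at 88142002 to 88142816, was 815 bp wide, with a fold enrichment of 8.15, a -log10 q of 8.60 and 22 tags (13.8 to 33.3). It stood 284th of 1621 by fold. It covered all 300 bases of the promoter window, of which the 250 before the start are printed above, and its summit lay 197 bp after the start. A second peak at 88143114 to 88143490, 297 bp further on, had a fold enrichment of 6.75 and 21 tags (13.0 to 32.1), with its summit 873 bp after the start. The KO PHF2 list had no peak within 7486940 bp of Mef2d.

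Mef2a, on chromosome 7 from 67231163 to 67376456 (Gene ID 17258), had 1 Ctrl PHF2 peak in a gene body of 145294 bp. The peak, at 67372451 to 67372939, was 489 bp wide, with a fold enrichment of 5.55 and 12 tags (6.20 to 21.0). The summit lay 171 bp after the start, the closest of the 7 summits at genes with a known start, and the peak covered 131 of the 300 bases of the promoter window. Mef2a was the member nearest to any KO PHF2 peak, at 382678 bp.

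Mef2c, on chromosome 13 from 83504017 to 83667079 (Gene ID 17260), is needed for heart and skeletal muscle and is also expressed in neurons and endothelium. It has 3 starts in the promoter table. The Ctrl PHF2 peak at 83505849 to 83506173 had a fold enrichment of 5.50 and 10 tags (4.80 to 18.4), the fewest of the 11, with its summit 1915 bp after the first start. The peak at 83524976 to 83525680 had a fold enrichment of 6.46 and 12 tags (6.20 to 21.0), with its summit 1383 bp after the second start. These peaks were 18802 bp apart, and neither reached a promoter window. The third start had no peak. Mef2d has only 1 start in the promoter table, so its 2 peaks could not be assigned to different starts.

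Six4, on chromosome 12 from 73099609 to 73114031 (Gene ID 20474), had the widest peak of the 9 genes. It ran from 73111464 to 73113372, 1909 bp, which ranked 51st by width among 1621 Ctrl PHF2 peaks but 1350th by fold, at 5.10. The summit, 867 bp after the start, held 22 tags (13.8 to 33.3), as many as the first Mef2d peak. The difference in fold between these peaks came with a difference in the local background, 2.0 at Six4 and 0.876 at Mef2d, in tags on the caller's scale. The peak reached 177 bases into the promoter window. It also fell within 5 kb of Mnat1, a neighbouring gene for a subunit of the CDK-activating kinase, so it counts for both genes.

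Eya1, on chromosome 1 from 14168953 to 14311035 (Gene ID 14048), had a Ctrl PHF2 peak at 14309432 to 14310060. It was 629 bp wide, with a fold enrichment of 6.94 and 13 tags (6.92 to 22.2), and its summit lay 1379 bp inside the upper end of the gene. Its fold, tags and background equalled those of the second Myf6 peak, since low tag numbers allow few distinct values. Eya4, on chromosome 10 from 23102962 to 23350838 (Gene ID 14051), is the longest of the 9 genes, at 247877 bp. Its peak at 23349326 to 23349710 was 385 bp wide, with a fold enrichment of 4.95, a -log10 q of 2.73 and 15 tags (8.40 to 24.7). The summit lay 444 bp after the nearer of its 2 starts, and the peak ended 131 bp from that promoter window. Neither gene had a KO PHF2 peak, with the nearest 22246234 bp from Eya1 and 5378957 bp from Eya4.

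Set against the whole Ctrl PHF2 list, the 11 peaks were middling in fold. Their fold enrichments ran from 4.72 to 8.15 with a median of 6.46, against a list median of 6.37 with quartiles of 5.50 and 7.47. Widths ran from 297 to 1909 bp with a median of 629, against a list median of 505. By fold 6 of the 11 lay above the list median, and by width 6 of 11. By summit tags their median was 13, against a list median of 15. These values come from the lists the genes were chosen on and carry no test.

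**Figure D1:**
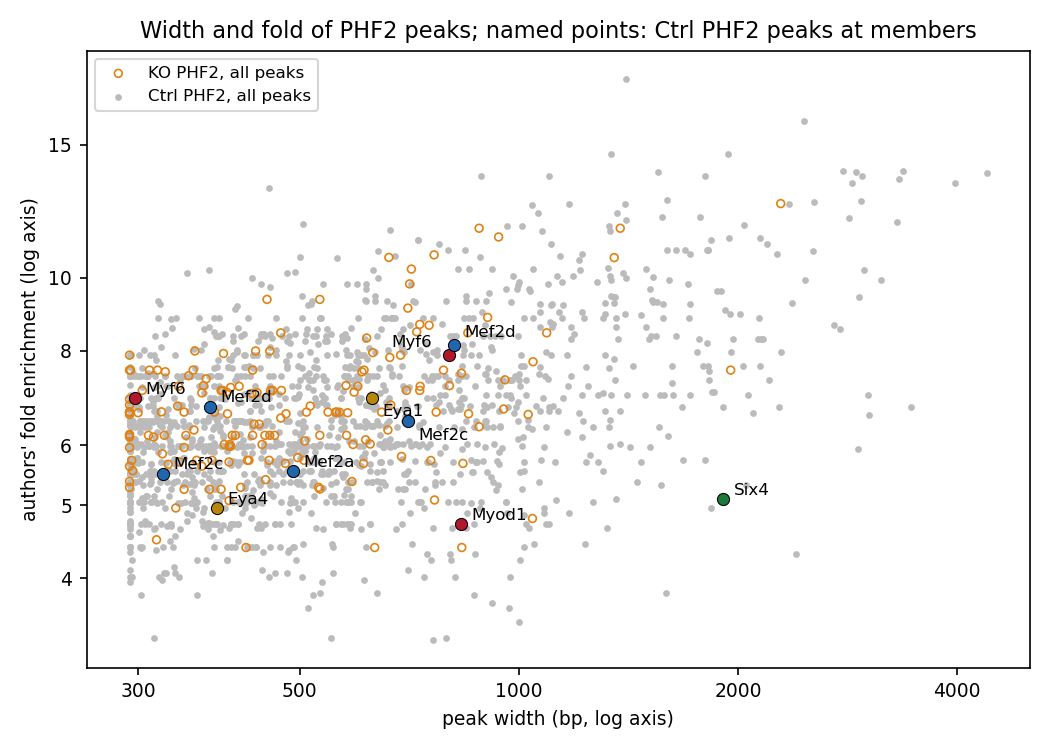
Fold enrichment against width in bp for all KO PHF2 peaks (open circles) and all Ctrl PHF2 peaks (grey), both axes logarithmic. The 11 named Ctrl PHF2 peaks lie between fold enrichments of 4.72 and 8.15, and Six4 stands at the wide, low-fold side with 1909 bp and 5.10.

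The fold orders the peaks differently from the tags. The 3 summits with over 20 tags were both Mef2d peaks and Six4, and the other 8 had 10 to 15. At 5 of the 11 peaks (both at Myf6, both at Mef2c and Eya1) the background was at a recurring low value, 0.361, as it was for 22.9% of all Ctrl PHF2 peaks. At Myod1 the background was 1.0 and at Eya4 it was 1.17. Thus Myod1 and the second Myf6 peak both had 13 tags, with folds of 4.72 and 6.94. The Poisson intervals of all 11 summits overlap, so an order of the genes by tags was not resolved at this depth.

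**Figure D2:**
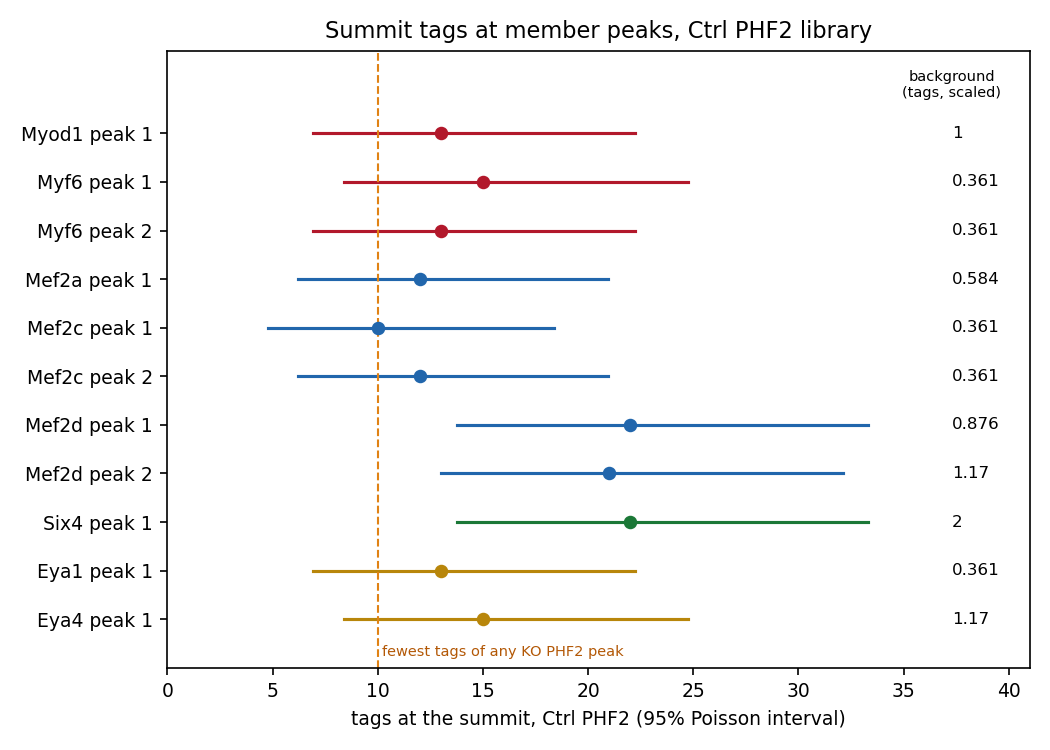
Tags at the summit of each member peak in the Ctrl PHF2 library, with 95% exact Poisson intervals, and the local background at the right, in tags on the caller's scale. The dashed line marks 10 tags, the fewest at any KO PHF2 peak, which the first Mef2c peak equals and the others exceed. The KO and Ctrl libraries are not matched for depth, and listing also depends on the background. The line is thus no detection limit for these peaks.

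No KO PHF2 peak was listed at any of the 9 genes. A KO PHF2 peak overlapped 0 of the 11 Ctrl PHF2 peaks. The nearest KO PHF2 peak to any of them was 386195 bp away. A Ctrl PHF2 peak with no KO PHF2 peak in the window was found at 6.8% of all protein-coding genes, or nearly all genes with a Ctrl PHF2 peak. The converse, a KO PHF2 peak and no Ctrl PHF2 peak, was found at 0 of the 9 genes and 0.137% of all. Among all 1418 Ctrl PHF2 peaks with 10 to 22 summit tags, the range of the member peaks, 65 (4.58%) overlapped a KO PHF2 peak. Beside that share, 0 of 11 is no result particular to these genes. In the KO PHF2 library the fewest tags at a peak were 10 and the median was 15, so a KO signal of fewer tags at these genes would have gone unlisted. Tags alone do not set what is listed. The lowest -log10 p of any listed peak was 6.19 in KO PHF2 and 4.73 in Ctrl PHF2. The Myod1 peak, with 13 tags, had 5.95, below every listed KO PHF2 peak, so a KO signal like it could also have gone unlisted. Whether any such KO signal was there was not measured.

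Where a start was known, summits lay on its transcribed side. Myod1, Myf6 and Eya1 had no start in the promoter table, and the second Myf6 summit lay 160 bp outside its gene. For the 5 peak-bearing genes with a start in the promoter table, 7 of 7 summits fell after the nearest start of their gene, by 171 to 1915 bp with a median of 867. Over the whole Ctrl PHF2 list, 1222 summits lay within 2 kb of a RefSeq start, and 941 of them (77.0%) were after it. The distance of those 941 had a median of 307 bp and quartiles of 192 and 614 bp. Of the 7 member summits 4 lay beyond that upper quartile: both at Mef2c, the second at Mef2d and the one at Six4. Exons and introns were not told apart, since the gene table holds none.

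The 3 promoters under a peak held more CpG than those of Myog and Mef2c, though Six4 by a small margin over its own second promoter. In the 300-base window (250 before to 50 after the start) Mef2a had 27 CpG dinucleotides, Mef2d had 24 and the first Six4 promoter had 16. The second Six4 promoter, with no peak, had 15. Its window overlaps that of the first and begins at 73113376, just past the end of the peak at 73113372. The Six4 windows are thus no contrast between separate promoters. Eya4, whose peak lies just beyond the window, had 28 and 36 at its starts. Myog, with no peak, had 9, and the 3 Mef2c promoters had 1, 10 and 4. Over all 21263 promoters of protein-coding genes, the 808 under a Ctrl PHF2 peak had a median of 29 (quartiles 21 and 37) and the other 20455 a median of 12 (4 and 24). Of promoters with 15 or more CpG, 7.31% lay under a Ctrl PHF2 peak, against 1.37% of those with 5 to 14 and 0.133% of those with 4 or fewer. The Myog and Mef2c promoters fall in the classes that seldom held a peak, as a description of sequence and not of a cause.

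**Figure D3:**
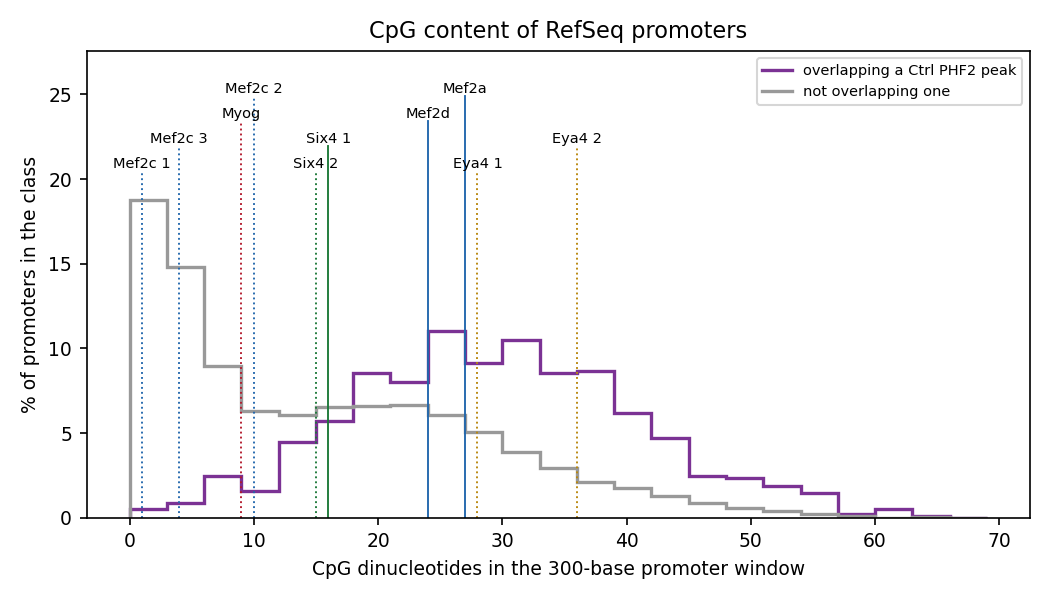
Number of CpG dinucleotides in 300-base RefSeq promoter windows, as a share of promoters in each class, for those overlapping a Ctrl PHF2 peak (purple) and those not (grey). Vertical lines mark the 10 member promoters, solid where a peak overlaps the window: Mef2a, Mef2d and the first of Six4, at 27, 24 and 16.

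Motifs of the factors themselves differed between the promoters. Positions here count the start as 0. The Myog window held E-boxes at -138 and -12, a MEF3 site at -84 and, with the last letter free, a MEF2 site at -64, all visible in the sequence printed above. Mef2d had none of these motifs. Mef2a had 1 MEF2 site, CTAAAAATAG, that begins 2 bases before the start and so runs out of the printed stretch. Six4 had a MEF3 site at -97. The first Mef2c promoter held 2 E-boxes, a MEF3 site and, with the last letter free, a MEF2 site at -146, and so had the same kinds of match as Myog. The third held 1 E-box and the second none. The overlapping Eya4 windows shared 1 E-box. Over all promoters of the same length, 69.0% held an E-box, 3.85% the MEF3 site and 2.74% the MEF2 site (6.63% with its last letter free). Among the 808 promoters under a Ctrl PHF2 peak the shares were 51.1%, 2.48% and 2.23% (4.08%), and the 3 such promoters here held no E-box. Matches are letters only and were not tested for binding.

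Beyond these genes, a list of 44 other genes of the myogenic network gave 1 gene with a KO PHF2 peak and 12 with a Ctrl PHF2 peak. The 12 were 27.3% of the list, beside 7.38% of all genes. That list too was chosen with earlier results of these data known and was not matched for gene length. The share is a description and was not tested. Lbx1, a homeobox gene of migrating muscle precursors, had 2 Ctrl PHF2 peaks with fold enrichments of 6.76 and 10.6. Tcf4 and Tcf12 encode E proteins that pair with the bHLH factors. Tcf4 had 3 peaks, up to 12.5. Tcf12 was the 1 gene of the list with a KO PHF2 peak, with a fold enrichment of 6.15 and 12 tags (6.20 to 21.0) in KO PHF2, and 6.34 and 18 tags (10.7 to 28.4) in Ctrl PHF2. Those intervals overlap. The third E protein gene, Tcf3, had no peak. Of 4 genes for class IIa histone deacetylases, which repress MEF2 factors, 3 had a Ctrl PHF2 peak, Hdac4 (6.02), Hdac5 (6.11) and Hdac7 (7.41), and Hdac9 had none. Of 3 genes for SRF and its coactivators, 2 had one, Srf (6.66) and Mrtfb (4.72), and Mrtfa had none. Tead1 (8.29), whose product is a Hippo pathway factor that binds muscle promoters, was 1 of 4 TEAD genes with a peak, and Vgll4 (8.32) 1 of 3 genes for VGLL cofactors. Carm1 and Smarcd3, which encode a methyltransferase and a chromatin remodelling subunit, had none. Nfix (7.18) encodes a factor of the fetal switch in myogenesis. The core genes Myf5, Pax7, Pax3 and Mef2b had no peak in any library.

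Peak lists do not measure expression, so the tissue label could not be checked by them. Of 7 markers of mature fibres, 9 of satellite cells and 5 of fibro-adipogenic cells, 0 had a peak in either PHF2 list. Ctrl PHF2 peaks lay at 2 of 5 endothelial markers, Cdh5 (5.98) and Flt1 (6.02), and at 1 of 4 immune markers, Cd68 (5.96), with 0 in KO PHF2. These peaks were 375, 296 and 299 bp wide, against a list median of 505. Over all genes the shares were 7.38% in Ctrl PHF2 and 0.713% in KO PHF2. With so few markers, neither the peaks nor the absences set a cell type apart. The part of other cell types in the member peaks was not tested.

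The genes most like Mef2d and Myf6 across the 4 libraries were found from summed peak width and highest fold in the same windows. Nearest to Mef2d (1192 bp in all, 8.15) were Pitpnc1 (1181 bp, 8.29), and Reep3 and Jmjd1c, which share a single peak (1166 bp, 7.89). Nearest to Myf6 (1100 bp, 7.89) were Tnik (1090 bp, 7.97), Fam53b (1078 bp, 7.97) and Pde4dip (1105 bp, 7.62). All 6 had 0 KO PHF2 peaks, as did Mef2d and Myf6. The KO PHF2 list was part of the likeness, so this follows from how the genes were chosen.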

How the data were processed

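CUT&RUN libraries from mouse gastrocnemius were grouped by their titles. Reads were aligned and peaks called with tools that include Bowtie2 and MACS2, on mm10, per the submitters' processing notes. Versions, settings, duplicate handling and the control library: not given in the sources used here. The authors called peaks per library. The deposited fold enrichment is a ratio over the caller's local background, with the deposited -log10 p and -log10 q beside it; the deposited score was not used. The members and lists were chosen with earlier results of these data known.

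Coordinates are 1-based, and 1 shared bp counted as overlap. Genes came from RefSeq of GRCm38.p6, the assembly behind mm10. Summit tags were solved from the authors' fold and -log10 p: at scale factors of 0.609 (KO) and 0.649 (Ctrl), 100% of 84 and 309 distinct pairs gave whole tags, within 0.001 of the -log10 p, and each member peak allowed 1 tag number. For this, the fold was taken as the scaled summit tags plus 1, over the background plus 1. Tags are those at the summit, read totals are unknown, and PCR copies may be among them. Intervals cover counting error only. The method was tested on simulated data. Named genes were the 9 members, network genes with a peak, 5 core genes, neighbours, and the 3 genes closest (Euclidean distance over log2 of 1 plus summed width and of 1 plus highest fold) to each of 2 members with most peaks. Mef2c tied with them and was set aside on summed width. A network gene that this rule names is not reported here. Alternatives were other windows, the summit alone, a -log10 q of at least 3, merged peaks and looser sharing. Software was pandas 2.3.3, NumPy 2.4.6 and SciPy 1.17.1 under Python 3.11.15, with matplotlib 3.10.9 for figures.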

Additional observations from a re-analysis of the deposited data

How the results depend on the processing

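No paired analysis was possible because there was 1 library a group, which also leaves none to omit. All 28 alternatives stayed within 1.5 times of the reported counts, where counts of 0 stayed at 0. The Ctrl PHF2 peaks at the 9 genes numbered 10 in the gene body alone, 11 with 1 kb, 20 kb or summits only, and 9 when peaks within 1 kb were merged. A -log10 q of at least 3 left 9 peaks at 6 genes, without Myod1 and Eya4. In each of these settings run on all lists (windows, summits, q) 0 genes had a KO PHF2 or IgG peak. The nearest KO PHF2 peak lay 382678 bp and the nearest IgG peak 960157 bp from any member. None of these settings could therefore have given another count. The share of all genes with a Ctrl PHF2 peak ran from 6.39% in the body alone to 9.57% with 20 kb. The free last letter of the MEF2 site was chosen after seeing the Myog sequence, and raised the motif matches at the 10 promoters to 13, against 11. Summits of 10 to 22 tags limit what these lists can resolve.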
